A study of Mus musculus with 6 samples.

Results

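Caspases and the Bcl2 family of apoptosis genes were measured in sham and tail-suspended mouse hearts. The set held 33 genes, listed by name as genes of the textbook pathway, of the 36163 gene names on the array. Tail-suspension lifts the hindlimbs off the floor by the tail and is used to simulate microgravity. Cardiac muscle of male C57BL/6 mice gave total RNA for 3 sham arrays and 3 arrays after 28 days of tail-suspension, and sham mice shared the housing and feed but were not suspended. The labels give an age of 10 weeks at the start of suspension and of 11 weeks for the animals, which cannot both hold with a 28-day suspension. No drug or genetic change was named for these samples, and the labels number 3 replicates per group without saying in words that each was a separate animal.

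Apoptosis is a programmed death in which proteases called caspases take a cell apart. In the mitochondrial route, BH3-only proteins sense stress and oppose the anti-apoptotic Bcl2 proteins, the pore formers Bax and Bak1 then open the outer mitochondrial membrane, and the cytochrome c that escapes joins Apaf1 to switch on Casp9. In the other route, death receptors such as Fas recruit Fadd and Casp8, while IAP proteins hold caspases and death receptor complexes in check. Cardiomyocytes carry many mitochondria, and cytochrome c is among the abundant proteins of their respiratory chain.

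The 33 members were read by 44 probes, and a member with several probes was read from the brightest. The probe sequences of 4 members are shown, Bcl2 and Bcl2l1 because the result turns on how differently these siblings behaved. Birc3 and Bcl2l11 were taken from among the dim members whose values depended on the background correction. Each sequence runs 5′ to 3′ in lower case with nothing capitalised, and positions are on mm9.
Bcl2 probe, chr1:108608970-108609029, minus strand: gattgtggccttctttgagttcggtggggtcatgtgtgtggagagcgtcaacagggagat
Bcl2l1 probe, the dimmer of its pair, chr2:152655185-152655244, minus strand: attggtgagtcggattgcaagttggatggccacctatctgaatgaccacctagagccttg
Bcl2l11 probe, chr2:127972893-127983988, plus strand: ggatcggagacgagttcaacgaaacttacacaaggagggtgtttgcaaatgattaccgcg
Birc3 probe, chr9:7854409-7854468, minus strand: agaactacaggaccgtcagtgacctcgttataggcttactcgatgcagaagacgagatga
The Bcl2l11 probe is 60 bases long but its ends lie 11096 bases apart in the genome, so it joins pieces that are separate there.

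Signal on each spot is a processed intensity, its brightness after background correction. A level is the log2 of that intensity minus the log2 of the 75th percentile of the same array, so a level of 0 is as bright as that percentile. A difference is the mean tail-suspension level minus the mean sham level. Levels compare a probe with itself across arrays, never with another probe. The share of probes well above background ranged over the arrays from 50.9% to 53.4%. The 75th percentile lay between 301.6 and 376.3, no spot was saturated, and arrays correlated at 0.991 or more within a group. All 6 arrays shared 1 slide and 1 scan. Per the positions in the file headers, row 1 held the 3 sham arrays with tail-suspension array 1, and row 2 held tail-suspension arrays 2 and 3. Values from row 1 alone therefore stand beside those of every called member and of some other genes, but not of all genes or of the markers.

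Tail-suspended hearts had a 3.25-fold higher signal for Bcl2l1, the gene of the anti-apoptotic protein Bcl-xL, and a 2.06-fold higher signal for the death receptor Fas. The BH3-only gene Bmf and the IAP gene Birc3 also rose. Cycs, which encodes cytochrome c, and Endog, a mitochondrial nuclease, fell. Of the 33 members, 31 were tested, and each of these was well above background on all 6 arrays. The ligand Fasl and the BH3-only gene Pmaip1 were well above background on none.

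With limma and Benjamini-Hochberg adjustment over 28032 tested probes, 4 members rose, 2 fell and 25 did not pass an adjusted p of 0.05. Among all 20659 gene names tested in the same way, 20.3% passed, 10.5% upwards and 9.81% downwards, and among all probes 20.4% passed, 10.8% upwards and 9.57% downwards. The count of members called was thus near the background share. Without sham array 1, sham array 2 or tail-suspension array 3, 3 members passed, while the share of all probes that passed dropped to 8.90%, 6.27% and 7.43%. With slide row as a block 1 member passed, beside 1.77% of all probes. In level, the groups did not overlap for 15 of the 31 members, 6 higher and 9 lower in tail-suspended hearts, beside 44.7% of all gene names. A change of at least 2-fold that also passed was found for Bcl2l1 and Fas, 2 of 31, beside 4.23% of all gene names. The median difference was -0.04 over the members and -0.01 over all gene names, and the median absolute difference was 0.25 and 0.23. These are arrays of whole cardiac muscle, in which fewer cells of a type and less RNA per cell cannot be told apart.

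**Figure D1:**
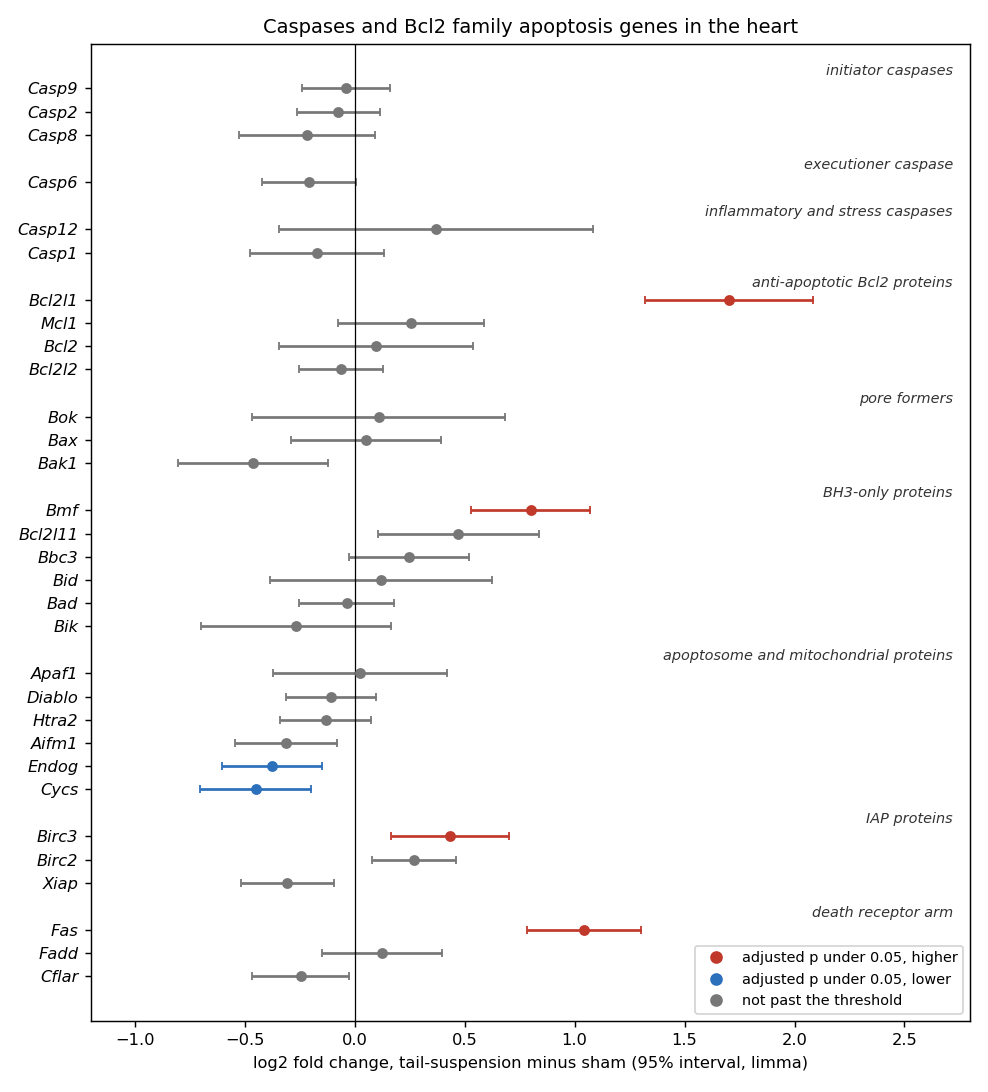
Difference in log2 level, tail-suspension minus sham, for the 31 tested members grouped by role (x axis, points with 95% intervals from limma, n = 3 arrays per group). Bcl2l1 at 1.70 stands far to the right, followed by Fas at 1.04 and Bmf at 0.80. Birc3 at 0.43 also passed, as did Cycs at -0.45 and Endog at -0.38 on the left. Members not past the threshold lie between -0.46 and 0.47.

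Bcl2l1 is the anti-apoptotic member that carried the largest difference of the set. Sham hearts gave processed intensities of 3963, 3851 and 3958, and tail-suspended hearts 13530, 12510 and 19080. The levels were 3.62, 3.59 and 3.71 in sham and 5.31, 5.06 and 5.67 in tail-suspended hearts, so every suspended heart lay far above every sham heart. The mean rose from 3.64 ± 0.06 to 5.34 ± 0.31 (SD, n = 3 each), a difference of 1.70 with a standard error of 0.16 and an adjusted p of 0.00276 (probe at chr2:152606404-152606463, mm9). This rise ranked 200 among 20659 gene names. The dimmer probe printed above gave levels of -2.08, -2.16 and -1.74 in sham and -0.50, -0.74 and -0.27 in tail-suspended hearts, again without overlap. Its difference was 1.49 with a standard error of 0.16 and an adjusted p of 0.0038, so both probes of Bcl2l1 rose. Within row 1 of the slide, the tail-suspended heart exceeded the sham mean by 1.67. Bcl2l1 passed the threshold in all 20 alternatives tried.

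The other anti-apoptotic Bcl2 genes did not pass. Bcl2 itself, the founding member of the family, had levels of -0.05, 0.31 and 0.40 in sham and 0.60, 0.01 and 0.34 in tail-suspended hearts. The groups overlapped, and the difference of 0.10 had a 95% interval of -0.34 to 0.54, which ends far below the lower limit of 1.32 for Bcl2l1. Bcl2 differed by 0.38, Mcl1 by 0.45 and Bcl2l2 by -0.05 within row 1. Mcl1, a short-lived anti-apoptotic protein, differed by 0.25 (adjusted p = 0.225), with 0.33 (adjusted p = 0.0637) on its other probe. Bcl2l2, which encodes Bcl-w, differed by -0.06 (adjusted p = 0.594). Its level was lower in every suspended heart, but its processed intensity was higher in each. The intensities were 1016, 991.6 and 1008 in sham and 1056, 1139 and 1148 in tail-suspended hearts. The other probe of Bcl2l2 was not well above background on any array.

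**Figure D2:**
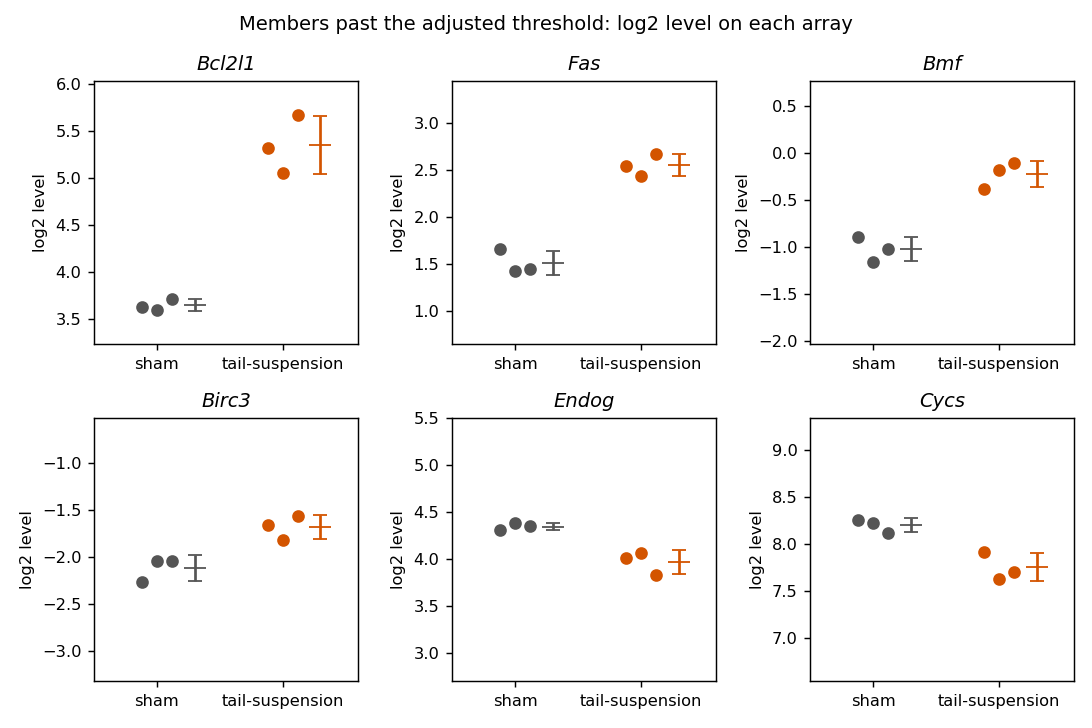
Log2 level relative to the 75th percentile of the array (y axis, the same span in every panel) of the 6 members past the adjusted threshold; points are arrays and bars are the mean ± SD of 3 arrays. Sham and tail-suspension points do not overlap in any panel, and the gap is widest for Bcl2l1.

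The pore formers did not pass the threshold. Bax, which opens the outer mitochondrial membrane, had levels of 1.64, 1.76 and 2.02 in sham and 1.98, 1.64 and 1.95 in tail-suspended hearts, with overlap. Its difference was 0.05, with a 95% interval of -0.29 to 0.39. Bak1, its partner in pore formation, had levels of 2.46, 2.28 and 2.39 in sham and 2.12, 1.63 and 1.99 in tail-suspended hearts. All suspended hearts lay below the sham hearts, but the difference of -0.46 missed the threshold (adjusted p = 0.063). The relative Bok differed by 0.11 (adjusted p = 0.771). Within row 1, Bax differed by 0.17, Bak1 by -0.25 and Bok by 0.44. The within-array log2 of Bax relative to Bcl2, the pair often read as the balance of pro- and anti-apoptotic genes, moved by -0.05 (exact permutation test, 2-sided, p = 0.6). A comparison of 3 with 3 arrays cannot give an exact p below 0.1. This shift changed sign without sham array 1 (0.0022) and without tail-suspension array 1 (0.031).

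Among the BH3-only genes, which sense stress and block anti-apoptotic proteins, 1 of 6 tested members passed. Bmf, whose protein binds anti-apoptotic Bcl2 proteins, had processed intensities of 172.3, 142.9 and 148.5 in sham and 261.3, 331.2 and 346.4 in tail-suspended hearts. The levels were -0.90, -1.16 and -1.02 in sham and -0.38, -0.18 and -0.12 in tail-suspended hearts, with a wide gap between the groups. The mean rose from -1.03 ± 0.13 to -0.23 ± 0.14 (SD, n = 3 each), by 0.80 with a standard error of 0.11 and an adjusted p of 0.00793 (chr2:118354496-118354555, mm9). In row 1 alone the value was 0.65. With slide row as a block, which gives that same value, Bmf no longer passed (adjusted p = 0.102).

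Bcl2l11, which encodes Bim, had levels of -2.81, -3.14 and -2.80 in sham and -2.71, -2.31 and -2.31 in tail-suspended hearts. The groups did not overlap, but tail-suspension array 1 lay close to the sham arrays, and the difference of 0.47 did not pass (adjusted p = 0.0721). With normexp background correction it was 0.063, and in row 1 alone 0.21. Bbc3, known as Puma and a target of p53, differed by 0.25, Bid, which links death receptors to mitochondria, by 0.12, Bad by -0.04 and Bik by -0.27, none past the threshold. Row 1 by itself gave 0.12 for Bbc3, 0.47 for Bid, -0.11 for Bad and -0.36 for Bik. Without tail-suspension array 2, Bik differed by -0.46 and passed (adjusted p = 0.0468). Pmaip1, known as Noxa, could not be measured above background.

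Of the 6 genes whose proteins act after the mitochondrial membrane opens, 5 had a negative difference and 2 of these passed. Cycs, the electron carrier that also starts the apoptosome, had processed intensities of 98730, 95740 and 84040 in sham and 82450, 74590 and 78450 in tail-suspended hearts. The levels were 8.26, 8.23 and 8.12 in sham and 7.92, 7.63 and 7.71 in tail-suspended hearts, and all suspended hearts lay below all sham hearts. The mean fell from 8.20 ± 0.07 to 7.75 ± 0.15 (SD, n = 3 each), a difference of -0.45 with a standard error of 0.11 and an adjusted p of 0.0311 (chr6:50515092-50515151, mm9). The other 2 probes of Cycs gave -0.46 (adjusted p = 0.0325) and -0.52 (adjusted p = 0.0993), the same direction in each case. In row 1 alone the value was -0.28, and with the row as a block it did not pass (adjusted p = 0.278). Cycs also lost its call without sham array 1 (adjusted p = 0.0939), sham array 2 (0.104), tail-suspension array 2 (0.0563) or tail-suspension array 3 (0.0959).

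Endog, a nuclease of mitochondria that can cut nuclear DNA, had processed intensities of 6389, 6670 and 6150 in sham and 5502, 6328 and 5333 in tail-suspended hearts. These raw brightnesses overlapped, whereas the scaled levels did not: 4.31, 4.38 and 4.35 in sham, and 4.01, 4.07 and 3.83 in tail-suspended hearts. The mean fell from 4.35 ± 0.04 to 3.97 ± 0.13 (SD, n = 3 each), a difference of -0.38 with a standard error of 0.10 and an adjusted p of 0.0379 (chr2:30028411-30028470, mm9). In row 1 alone the value was -0.33, and with the row as a block it did not pass (adjusted p = 0.262). The call was lost without sham array 1 (adjusted p = 0.0911), sham array 2 (0.125), sham array 3 (0.0746), tail-suspension array 1 (0.0819) or tail-suspension array 3 (0.109). Aifm1, a mitochondrial flavoprotein that also takes part in caspase-independent death, missed the threshold at -0.31 (adjusted p = 0.0638). Its levels did not overlap between the groups, but its processed intensities did. Without sham array 3 Aifm1 passed, at -0.39 (adjusted p = 0.0401). Diablo and Htra2, which relieve the block by IAP proteins, differed by -0.11 and -0.13, and Apaf1, the scaffold of the apoptosome, by 0.02, none past the threshold. The dimmer probe of Diablo read -0.42 (adjusted p = 0.0937).

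Among the 3 IAP genes, the levels of Birc3 and Birc2 were higher and that of Xiap lower in every tail-suspended heart, and only Birc3 passed. Birc3, the ubiquitin ligase cIAP2, had processed intensities of 66.6, 77.5 and 73.3 in sham and 107.5, 106.2 and 126.6 in tail-suspended hearts. The levels were -2.27, -2.04 and -2.04 in sham and -1.66, -1.83 and -1.57 in tail-suspended hearts, without overlap. The mean rose from -2.12 ± 0.13 to -1.69 ± 0.13 (SD, n = 3 each), by 0.43 with a standard error of 0.11 and an adjusted p of 0.0401 (chr9:7854409-7854468, mm9). Its other probe gave a larger but noisier difference of 0.52 that did not pass (adjusted p = 0.147). In row 1 alone the value was 0.45, and with the row as a block it did not pass (adjusted p = 0.217). With normexp background correction the difference shrank to 0.18 (adjusted p = 0.232). The call was lost without sham array 1 (adjusted p = 0.112), sham array 2 (0.0968), sham array 3 (0.062), tail-suspension array 1 (0.102) or tail-suspension array 3 (0.12), and in 13 of the 20 alternatives in all, more often than for any other member that rose.

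Birc2, which encodes cIAP1, had levels of 0.78, 0.72 and 0.69 in sham and 1.02, 0.96 and 1.02 in tail-suspended hearts, a difference of 0.27 that just missed the threshold (adjusted p = 0.0571). Xiap, an IAP that binds caspases directly, had levels of 2.62, 2.76 and 2.63 in sham and 2.38, 2.42 and 2.29 in tail-suspended hearts. Its difference of -0.31 also just missed (adjusted p = 0.0532). The cIAP genes and Xiap thus differed in opposite directions, each without overlap of the levels, and neither Birc2 nor Xiap passed. The processed intensities of Xiap did overlap, at 1975, 2166 and 1871 in sham and 1773, 2017 and 1832 in tail-suspended hearts.

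**Figure D3:**
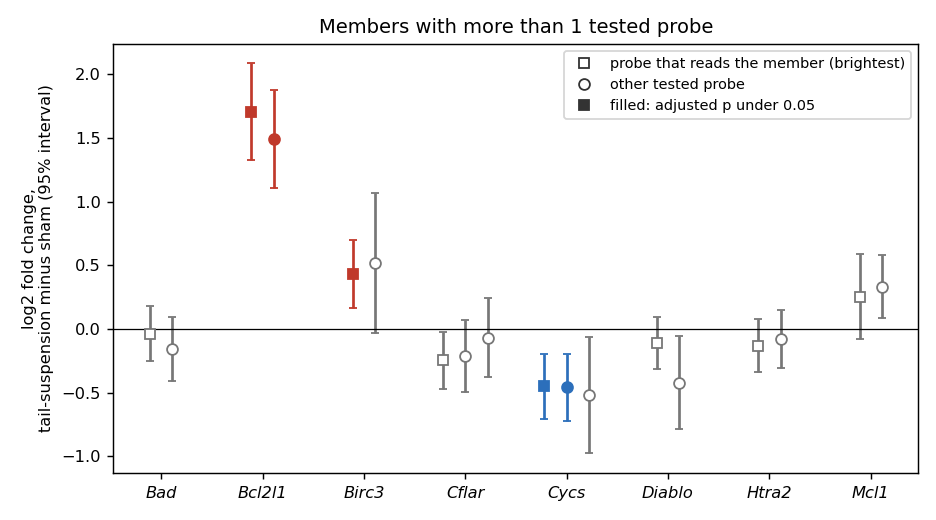
Difference in log2 level with its 95% interval (y axis, tail-suspension minus sham, n = 3 arrays per group) for every tested probe of the 8 members with more than 1 tested probe; squares are the probes that read the member and filled symbols passed. The probes of each gene point the same way, and both Bcl2l1 probes and 2 of 3 Cycs probes passed.

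In the death receptor arm, Fas was the member that rose. Fas, the receptor that recruits Fadd and Casp8 when bound by its ligand, had processed intensities of 1015, 855.3 and 820.7 in sham and 1985, 2033 and 2386 in tail-suspended hearts. The levels were 1.66, 1.42 and 1.44 in sham and 2.54, 2.43 and 2.67 in tail-suspended hearts, so the lowest suspended heart stood well above the highest sham heart. The mean rose from 1.51 ± 0.13 to 2.55 ± 0.12 (SD, n = 3 each), by 1.04 with a standard error of 0.11 and an adjusted p of 0.00333 (chr19:34402164-34402223, mm9). This rise ranked 589 among all gene names. In row 1 alone the value was 1.04, the same size, and with the row as a block the adjusted p was 0.0536. Its ligand Fasl was not well above background on any array. The adaptor Fadd differed by 0.12 (adjusted p = 0.461) and Cflar, the inhibitor of Casp8 known as c-FLIP, by -0.25 (adjusted p = 0.102), with all 3 Cflar probes negative.

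None of the 6 caspase members passed. The initiators Casp2, Casp8 and Casp9 differed by -0.07, -0.22 and -0.04. Casp6, an executioner, had levels of 1.55, 1.52 and 1.50 in sham and 1.37, 1.19 and 1.38 in tail-suspended hearts. All suspended hearts lay lower in level, and the difference of -0.21 did not pass (adjusted p = 0.137). The processed intensities of Casp6 overlapped, at 940, 919.8 and 855.2 in sham and 883.7, 859.4 and 975.9 in tail-suspended hearts. Casp1, the inflammatory caspase that processes interleukins, differed by -0.17. Casp12, linked to endoplasmic reticulum stress, differed by 0.37 with the widest interval of the set, -0.35 to 1.08. With normexp background correction its difference was 0.098. Tail-suspension array 2 stood alone at -1.24, and the other 5 arrays lay between -2.49 and -2.08. In row 1, Casp8 and Casp12 turned to 0.02 and -0.06.

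**Figure D4:**
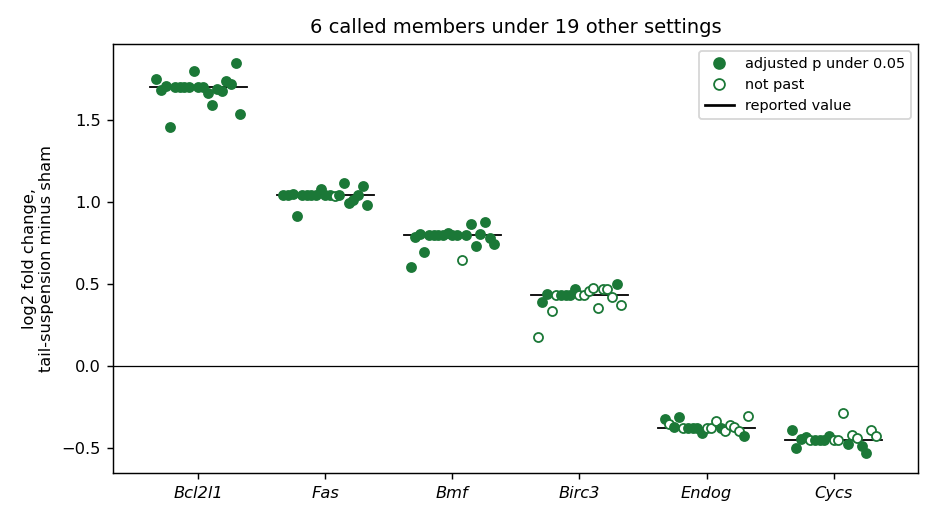
Difference in log2 level, tail-suspension minus sham (y axis), of the 6 called members under 19 other settings, each a point that is filled where the adjusted p was under 0.05; the black line is the reported value. Directions hold throughout, and Bcl2l1 is filled at every setting while Birc3, Endog and Cycs often are not.

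Promoters of the members were searched for letters bound by factors of stress, inflammation and mitochondrial gene control, in the 250 bases before each start site (RefSeq, GRCm38.p6). Windows were held for 30 of the 33 members, 41 windows in all, and both strands were read. The windows of Bcl2l1, Fas and Cycs are shown because these are called members in which a motif was found, and capitals mark the matches.
Bcl2l1 promoter, the second of its 3 windows, chr2:152830718-152830967, minus strand: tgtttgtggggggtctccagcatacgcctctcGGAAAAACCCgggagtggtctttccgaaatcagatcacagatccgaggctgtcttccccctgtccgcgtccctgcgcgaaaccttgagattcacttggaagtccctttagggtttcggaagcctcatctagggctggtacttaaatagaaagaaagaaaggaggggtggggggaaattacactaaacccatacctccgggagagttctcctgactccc
Fas promoter, chr19:34290409-34290658, plus strand: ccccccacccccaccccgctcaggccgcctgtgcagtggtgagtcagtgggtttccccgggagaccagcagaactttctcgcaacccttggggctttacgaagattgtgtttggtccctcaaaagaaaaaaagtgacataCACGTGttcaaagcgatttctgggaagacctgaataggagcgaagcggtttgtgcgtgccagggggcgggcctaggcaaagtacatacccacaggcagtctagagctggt
Cycs promoter, chr6:50566570-50566819, minus strand: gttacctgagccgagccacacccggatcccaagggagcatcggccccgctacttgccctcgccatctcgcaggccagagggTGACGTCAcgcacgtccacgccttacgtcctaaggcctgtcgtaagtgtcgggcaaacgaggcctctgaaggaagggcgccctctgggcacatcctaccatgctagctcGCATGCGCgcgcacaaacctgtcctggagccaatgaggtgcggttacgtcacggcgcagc
The NF-kB letters, GGG and TTTCC with any 2 bases between them, were in 1.41% of all 32851 windows and in those of Bbc3, Bcl2l1 and Mcl1. The E-box CACGTG was in 6.02% of all windows and in those of Bax, Bbc3, Casp1 and Fas. The cyclic AMP element TGACGTCA was in 1.55% of all windows, and among members in Birc2 and Cycs. The NRF1 core GCATGCGC was in 2.26% of all windows and in Aifm1, Apaf1, Bax, Cycs and Fadd. The FoxO core GTAAACA was in 3.17% of all windows and in Bbc3 and Bcl2l11. The glucocorticoid element, AGAACA and TGTTCT with any 3 bases between them, was in no member window and in 0.00913% of all windows, and its shorter AGAACA, which lies within it, was in 16.1% of all windows and in Bok, Casp1, Fadd and Xiap. The windows of Bmf, Birc3 and Endog held none of these letters. Both members with the cyclic AMP element differed in opposite directions, -0.45 for Cycs and 0.27 for Birc2, of which Birc2 did not pass. A match is a description of the letters only.

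Beyond the set, 58 other apoptosis pathway genes were on the array and 47 were tested, of which 4 rose and 10 fell, beside 20.3% of all gene names. Without tail-suspension array 3, 5 passed, without sham array 2, 6, and without sham array 1, 7, when 7.43%, 6.27% and 8.90% of all probes passed in turn. Without tail-suspension array 1, 7 passed, as did 3009 of 28032 probes. With slide row as a block 1 passed, beside 1.77% of all probes. Foxo3, a transcription factor that switches on Bcl2l11 and Bbc3, had levels of -1.39, -1.75 and -1.75 in sham and 0.08, -0.21 and 0.06 in tail-suspended hearts. It rose by 1.61 with a standard error of 0.14 and an adjusted p of 0.00236. Its other probe was well above background on only 3 of 6 arrays and was not tested, with mean levels of -4.29 in sham and -3.91 in tail-suspended hearts and overlap between the groups. Bnip3, a mitochondrial relative of the BH3-only proteins with a role in mitophagy, rose by 1.19 (adjusted p = 0.0107), and its other probes by 1.27 and 1.46. Dffa, the inhibitor that holds the DNA-cutting nuclease of apoptosis inactive, fell by 1.20 (adjusted p = 0.00333) while Dffb, the nuclease itself, rose by 0.69 (adjusted p = 0.00927). The groups did not overlap for either gene, and the other probes of Dffa fell by 0.56 and 0.79. Within row 1, Foxo3 differed by 1.71, Bnip3 by 0.88, Dffa by -1.17 and Dffb by 0.70. Ppif, the cyclophilin of the mitochondrial permeability pore, fell by 1.04 (adjusted p = 0.0113), the transcriptional repressor Bcl6 fell by 0.64 (adjusted p = 0.0246) and the inflammatory caspase Casp4 rose by 0.62 (adjusted p = 0.0206). The other probe of Casp4 read 0.45 (adjusted p = 0.0687). Faim3, a receptor of lymphocytes, fell by 1.70 (adjusted p = 0.0343), but it was well above background on only 1 of 3 tail-suspension arrays.

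**Figure D5:**
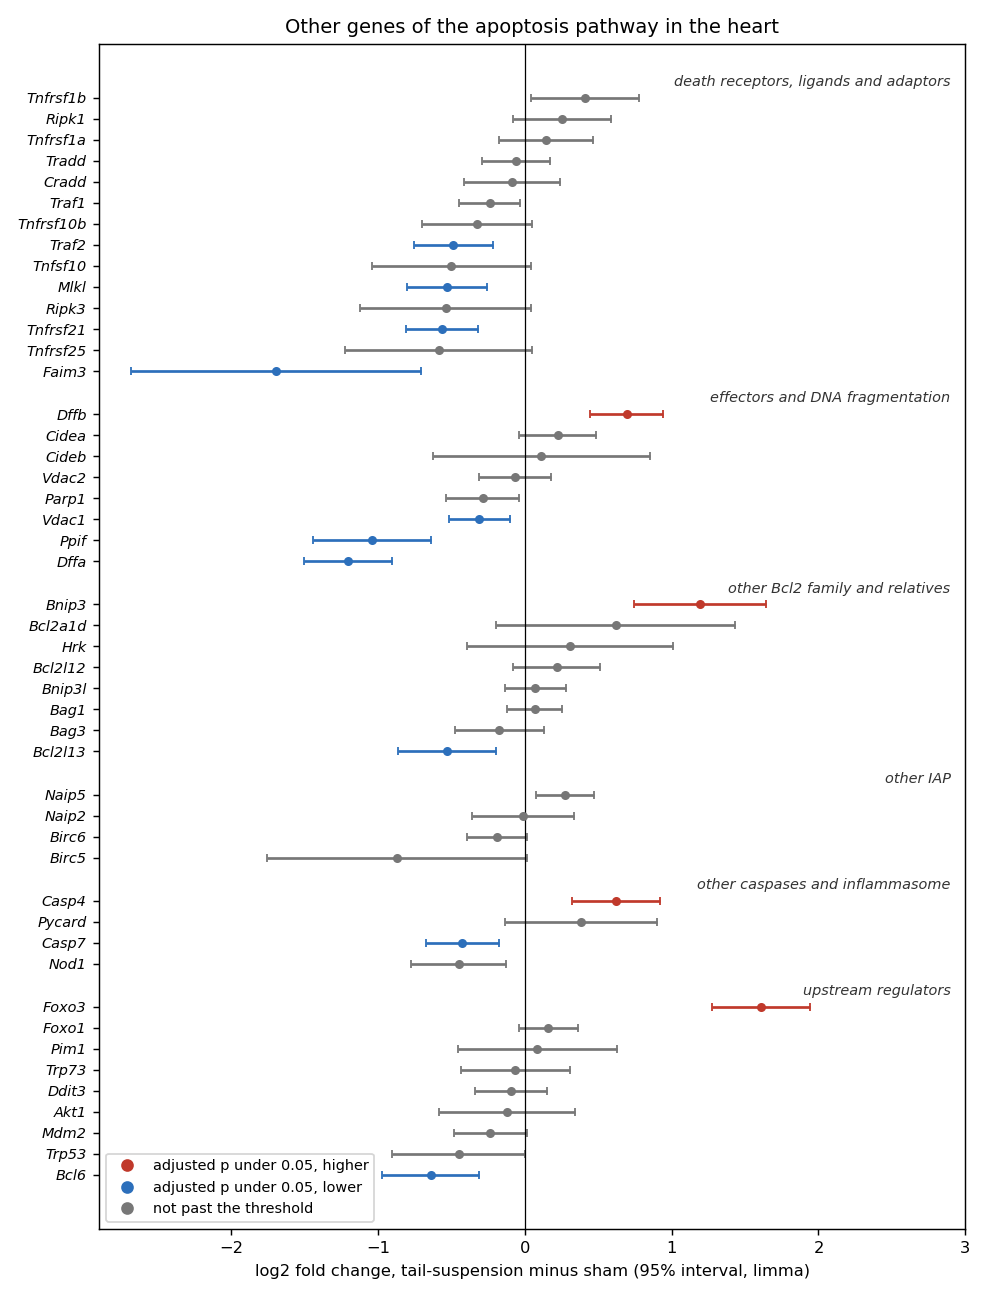
Difference in log2 level, tail-suspension minus sham (x axis, points with 95% intervals, n = 3 arrays per group), for the 47 tested genes of the wider pathway, grouped by role. Foxo3, Bnip3, Dffb and Casp4 lie to the right and 10 genes to the left past the threshold, among them the inhibitor Dffa opposite its nuclease Dffb.

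Several cell type markers moved with the groups. A summed level adds the linear levels of a list's probes, so bright probes weigh most in it. All 7 cardiomyocyte markers were tested and Actc1 fell, with a summed level, relative to the 75th percentile, of 3658 to 3965 in sham and 3351 to 3476 in tail-suspended hearts. Of 6 neutrophil markers tested, Mpo, S100a8 and S100a9 rose. Camp differed by 1.97 (adjusted p = 0.0654), and Elane went the other way at -0.30 (adjusted p = 0.0674), neither past the threshold. The level of Elane was lower in every suspended heart. S100a8, an inflammatory calcium-binding protein, had levels of -2.54, -2.88 and -3.38 in sham and 3.31, 0.55 and 1.75 in tail-suspended hearts, a 27.9-fold rise (adjusted p = 0.00705). Its partner S100a9 had levels of -0.49, -0.71 and -1.15 in sham and 5.22, 2.61 and 3.67 in tail-suspended hearts, a 24.5-fold rise (adjusted p = 0.00661). For both, tail-suspension array 1 was the highest and array 2 the lowest of the suspended hearts. The neutrophil list summed to 144.2 to 172.1 in sham and 207 to 235 in tail-suspended hearts. In both groups the sum came mostly from Csf3r, which did not pass (0.30, adjusted p = 0.0926). On sham arrays Mpo did not rise well above background. Endothelial markers summed to 41.4 to 44.2 in sham and 30.5 to 34.4 in tail-suspended hearts, with Emcn, Kdr and Tie1 of 6 lower. Pecam1 differed by 0.19 (adjusted p = 0.291), Cdh5 by -0.29 and Tek by -0.22, none past the threshold. The macrophage list had 1 of 6 higher (Cd163, which no sham array showed well above background), with overlapping sums of 24.2 to 31.8 and 25.9 to 40.2. No fibroblast, smooth muscle, adipocyte, erythroid or T and NK lymphocyte marker passed, and Cd3g, Cd8a and Klrb1c were not well above background on any array. The erythroid sums still did not overlap, with 427.6 to 688.8 in sham and 105.9 to 343.8 in tail-suspended hearts, and neither did those of T and NK lymphocytes, with 4.66 to 4.78 and 3.80 to 4.49. The part of these shifts in the changes of Bcl2l1, Fas, Bmf, Birc3, Cycs and Endog was not tested.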

How the data were processed

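Cy3-labelled RNA of 3 sham and 3 tail-suspension hearts was hybridised to 1-colour Agilent arrays on 1 slide. The authors deposited the output of Agilent Feature Extraction 10.7.1.1, with a processed intensity per spot, and a table of their own log2 values of the same arrays; all 6 columns of that deposited log2 table share 1 median (4.32), and it served as an alternative. Control spots and 146 to 212 outlier spots per array were left out, spots of a probe were averaged, and log2 processed intensity was taken relative to each array's 75th percentile. Probes well above background (50% of spots or more) on every array of a group were tested with limma 3.58.1 in R 4.3.3, with Benjamini-Hochberg adjustment over all tested probes and a threshold of 0.05. A gene was read from its brightest probe. The members, lists and motifs were chosen with earlier results of these data known. Every member is named, those past the threshold with array values, and of the wider pathway the 8 largest changes that passed. The steps were tested on simulated data. Only 3 arrays per group limit the precision, and where replicates were not separate animals p-values measure the spread between arrays only. Gene names are those of the array. Coordinates of probes are mm9 as in the files, and those of promoter windows are GRCm38.p6. All 33 members matched RefSeq symbols of GRCm38.p6. Alternatives covered the background correction, normalization, filter, outlier spots, variance model, array weights, the methods' t-test, blocks, choice of probe, a 2-fold minimum and each array left out. Some genes of the wider pathway and marker lists are not reported here.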

Additional observations from a re-analysis of the deposited data

How the results depend on the processing

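Bcl2l1 passed in all 20 alternatives, with differences of 1.46 to 1.85. Fas lost its call only with slide row as a block, Bmf there and under the 2-fold minimum, Cycs in 9, Endog in 11 and Birc3 in 13 of 20, and none of the 6 changed direction. The count of members past the threshold was 6 as reported. It was 3 without the background filter, 1 with the row as a block and 2 with a 2-fold minimum. With an intensity trend and robust eBayes it was 10, when 24.6% of all probes passed, beside 20.4% as reported. With single arrays left out it was 3 to 6 (3 without sham array 1, sham array 2 or tail-suspension array 3). The count of wider pathway genes, 14 as reported, was 7, 1 and 5 without the filter, with the row as a block and with the 2-fold minimum, 5 with the methods' t-test, and 5 to 13 with single arrays left out. The count of probes, 5706 as reported, was 1831, 497 and 1217 under those 3 settings, 8820 with array weights, 2783 with the methods' t-test, and 1757 (without sham array 2) to 5586 with single arrays left out. Of 31 members, the methods' t-test called 5 higher and 7 lower at an unadjusted threshold, and 4 higher and 0 lower after Benjamini-Hochberg adjustment. Of all 28032 probes, it called 4808 higher and 4690 lower unadjusted, and 1533 higher and 1250 lower after adjustment.

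Same-numbered replicates shared only a number (correlations of deviations -0.02, -0.018 and 0.05), and with the replicate block 3117 probes, 3 members and 7 wider pathway genes passed. A slide block was not run because there was 1 slide. Values within row 1 were added after seeing the data.

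Among members not called, Birc2 passed in 5, Xiap in 4, Aifm1 in 4, Bak1 in 1 and Bik in 1 of 20 alternatives. Directions turned only for members that were not called. Apaf1 read -0.115 with normexp, -0.0473 with quantile normalization, -0.033 with the authors' log2 values and -0.119 with the row block, and -0.108 to 0.183 with single arrays left out. With normexp, Bid read -0.0639, Bad 0.0298 and the shift of Bax against Bcl2 0.0189, the last ranging from -0.118 to 0.0309 with single arrays left out. With the row block, Casp8 read 0.0185 and Casp12 -0.0579. With single arrays left out, Bcl2 spanned -0.0429 to 0.25, Bax -0.0337 to 0.157, Bok -0.0586 to 0.319, Bid -0.0572 to 0.341 and Casp9 -0.0775 to 0.0033. The dim probes of Birc3, Bcl2l11 and Casp12 read 0.179, 0.0632 and 0.0984 with normexp.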
